A study of Homo sapiens with 2 samples.

Results

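The 42 genes described here encode inflammatory cytokines and chemokines, the NF-kB transcription factors and their regulators, and receptors of the IL6 family. They were taken from a fixed list of symbols, and 40 of the 42 were matched to a row among the 31845 Ensembl genes of the deposited table. Of the 42, 25 are secreted factors (membrane-anchored CXCL16 and CX3CL1 included) and 17 are pathway genes, namely NF-kB subunits, feedback regulators, response genes and receptors. RNA was sequenced from 1 library of parental Capan-1 cells and 1 library of an olaparib-resistant derivative of the same line. Capan-1 is an established human line from a pancreatic adenocarcinoma, mutant for BRCA2, whereas the cell type field of the labels reads breast cancer. Olaparib inhibits PARP enzymes, which repair DNA breaks. The resistant line was derived by raising the olaparib concentration in steps, from 15 nM to 128 uM, and both lines were grown in 10% serum, per the labels. Whether the resistant line is a clone or a pool, and whether olaparib was present at harvest, is not given in the sources used here. The count column that carries the name of the parental line was taken as parental and the remaining column as resistant, so each direction given here depends on that reading.

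NF-kB is a family of dimeric transcription factors held in the cytoplasm by inhibitor proteins. Signals from IL1 receptors, Toll-like receptors and TNF receptors activate a kinase complex that removes the inhibitor, and the freed dimers enter the nucleus and induce cytokines, chemokines and their own inhibitors. In pancreatic cancer cells this pathway is known for driving neutrophil-attracting chemokines, while LIF and IL6 act on neighbouring and on tumour cells through the shared receptor subunit encoded by IL6ST and through STAT3.

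The libraries were of similar depth, with 34572931 counts in the parental and 34507480 in the resistant library. There was no replicate, so no test between the lines was possible, and each difference describes these 2 libraries. Ratios were computed from TMM-scaled counts, and calls of higher or lower needed 50 counts in the library with more and a difference of 2-fold. Intervals are exact 95% intervals of the ratio and cover counting error only. At this depth they excluded equality in 84.9% of all 15102 genes with 50 counts, so an interval off equality is the rule. In bulk RNA, fewer cells of a kind and less RNA per cell cannot be told apart. BRCA2, the gene named in the title of the series, had 7585 resistant and 1381 parental counts. Epithelial markers were abundant in both libraries, for example EPCAM with 76990 resistant and 43076 parental counts, and 5 of 6 reached 50 counts. Of 12 leukocyte markers, 2 did, CD68 and the secretory gene LYZ (1555 resistant and 30464 parental counts). PTPRC, which marks all leukocytes, had 19 and 7 counts, CD3E 1 and 1, and TYROBP and MS4A1 had no matched row. The 8 matched fibroblast markers of 10 summed to 703 resistant and 190 parental counts, of which LUM made up 523 and 35. COL3A1 had 8 and 0 counts and DCN 5 and 0, whereas COL1A1 went the other way with 38 and 97. The 4 matched endothelial markers of 6 summed to 80 and 216 counts, of which ESAM made up 70 and 213. TEK had 7 and 0 counts, VWF 3 and 0 and KDR 0 and 3. The part of such markers in the results was not tested.

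The rows of most genes had the length of 1 annotated transcript. The FPKM values imply the gene length that the authors used, and this length equalled that of an annotated GENCODE transcript, within 0.5%, in 88.9% of 12143 protein-coding genes that reached 50 counts. The median implied length was 47.3% of the longest transcript. For SOD2 it was 571 bases where the longest transcript has 14266, for BIRC3 549 of 5197, for NFKB1 612 of 4085 and for RELA 754 of 3183. For CXCL5, IL33, IL18, LIF and LIFR it was the full length of the longest transcript. Whether the counts also come from that transcript alone, and how a transcript was chosen, is not given in the sources used here. Ratios near equality were scarce in genes with many annotated transcripts. Of 2310 genes with 1 transcript, 12.4% had a log2 ratio within 0.1 of equality, against 1.40% of 4009 genes with over 10 transcripts. A row is called full length below when its implied length was at least 90% of the longest transcript, a distinction made after the data were seen. Values of shorter rows may not stand for the whole gene. Full-length rows may be affected too where a gene has several transcripts, as IL33 (5), IL18 (6) and LIFR (9) do. Of the 5672 full-length rows, 7.26% lay within 0.1 of equality, also below the share for genes with 1 transcript.

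Of the 42 genes, 34 reached 50 counts in at least 1 library, and 30 of them in both. IL1A and CSF2 reached it in the resistant library alone, and CX3CL1 and ICAM1 in the parental library alone. The 6 measured genes below 50 counts in both libraries were IL1B, IL1RN, IL6, CXCL6, CCL2 and IL6R. CSF3 and CCL5 had no matched row, which the selection rule counts as 0. An older Ensembl identifier would not have been found, since 2126 identifiers of the table had no name, so no level is given for these 2. Among the 18 secreted factors at 50 counts, 5 exceeded the parental level by 2-fold or more (IL33, CSF2, IL32, IL18 and IL1A) and 3 lay below it by 2-fold or more (CX3CL1, CXCL5 and LIF). Over all 15102 genes at that minimum, 6.00% were higher by the same rule and 8.95% lower. Among the 16 pathway genes at 50 counts, none was called higher (0 of 16) and 2 were called lower, LIFR and NFKBIZ. The median log2 ratio was -0.41 for the secreted factors and -0.48 for the pathway genes, against 0.06 for all genes, of which 48.8% had log2 ratios below 0. The mean of the secreted factors was 0.17, because their higher members lay farther from equality than their lower ones.

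**Figure D1:**
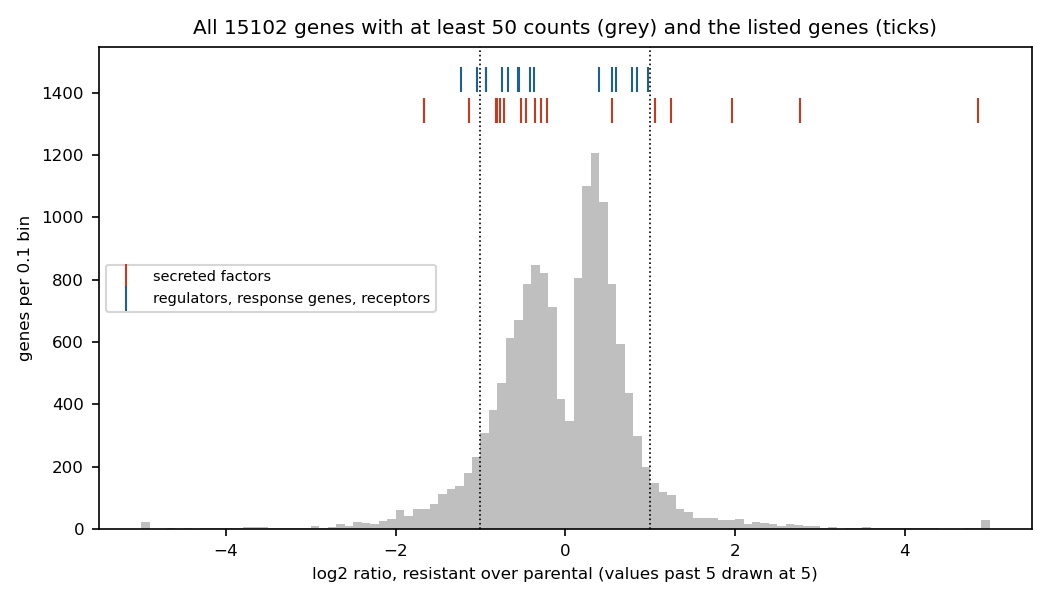
Distribution of the log2 ratio of resistant over parental counts (x axis) over all 15102 genes that reached 50 counts, as the number of genes per bin (y axis, grey). Ticks mark the 18 secreted factors (red) and the 16 pathway genes (blue), and dotted lines a 2-fold difference. The highest tick is IL33 at 4.86, and the grey distribution dips at equality.

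**Figure D2:**
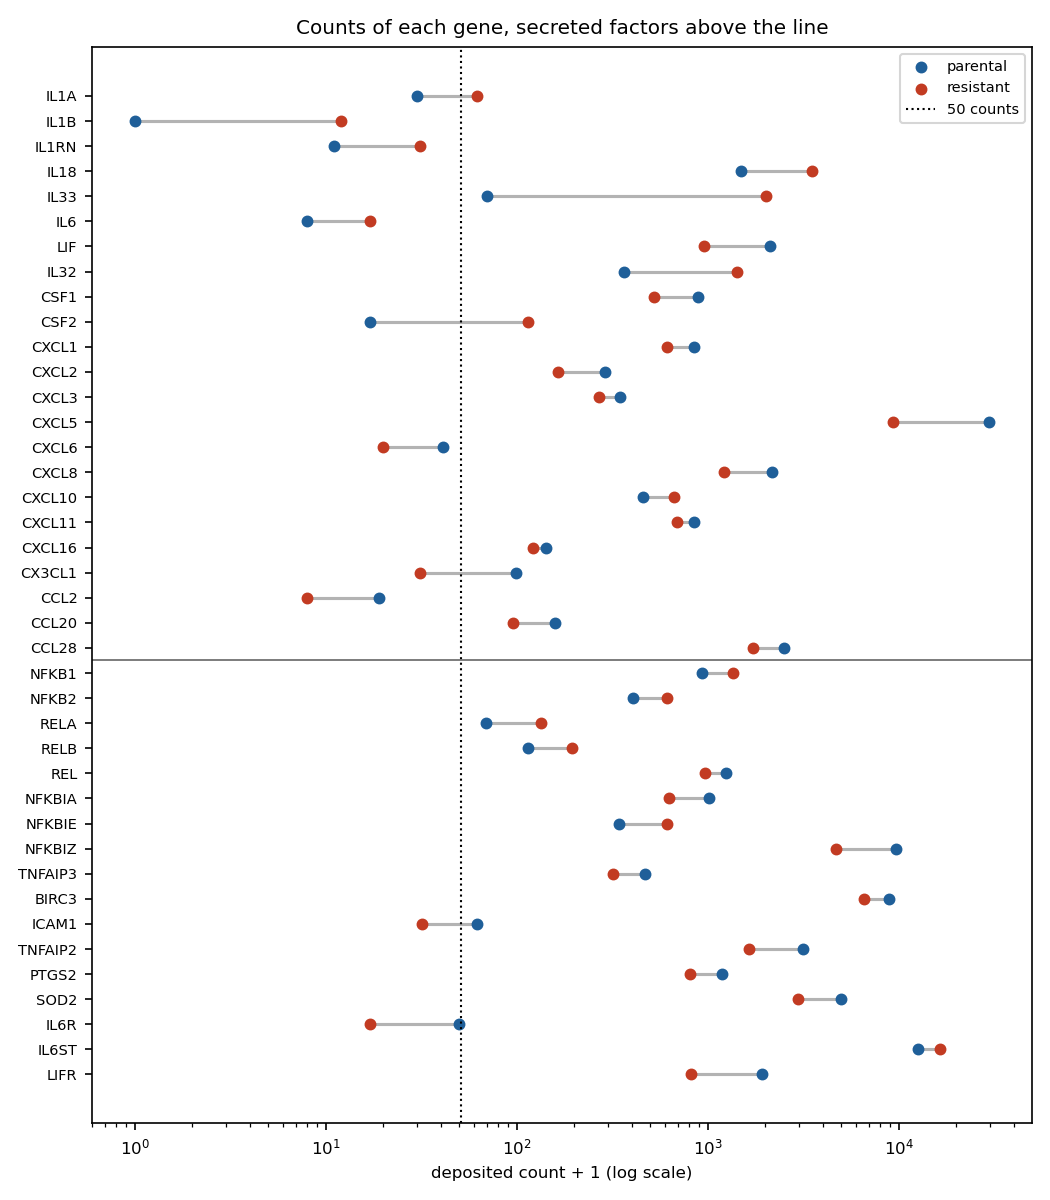
Deposited count plus 1 of each of the 40 matched genes (log x axis) in the parental (blue) and the resistant library (red), with secreted factors above the horizontal line and pathway genes below it. The dotted line marks 50 counts. The widest spans among genes that reach it are those of IL33 (69 to 2014 counts) and CSF2 (16 to 114).

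Of the 5 listed genes of the IL1 family, 3 were called higher, against 6.00% of all genes, and the other 2 did not reach 50 counts. IL33 (ENSG00000137033) encodes a nuclear cytokine that epithelial cells release on damage and that signals through the receptor encoded by IL1RL1. It had 2014 resistant and 69 parental counts, a ratio of 29.4 (counting interval 23.1 to 37.9), and deposited FPKM values of 8.96 and 0.294. This was the largest ratio among the members. IL18 (ENSG00000150782) encodes an epithelial cytokine that needs cleavage by caspase 1 to be active. It had 3496 and 1485 counts and was 2.37-fold higher (2.23 to 2.52). IL1A (ENSG00000115008), which encodes a cytokine that is active without cleavage, had 61 and 29 counts, a ratio of 2.12 (1.34 to 3.42). IL1B had 11 and 0 counts, with a lower counting limit of the ratio of 2.53. IL1RN, whose product blocks the IL1 receptor, had 30 and 10 counts, a ratio of 3.02 (1.44 to 6.92), from a row of 26.0% of the longest transcript. All 5 had more counts in the resistant library, where 51.2% of all genes at 50 counts had log2 ratios above 0. IL33, IL18 and IL1A were full-length rows.

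IL1A, IL1B and IL1RN lie in a cluster of related genes on chromosome 2 that also holds IL37 and IL36RN. IL36RN, which encodes an antagonist of the IL36 receptor, had 155 resistant and 25 parental counts and was 6.24-fold higher (4.07 to 9.94). IL37, which encodes a member of the family that dampens inflammation, had 107 and 34 counts and was 3.17-fold higher (2.14 to 4.81). IL36G, below the minimum, had 9 and 0 counts. The 10 nearest measured coding genes, 5 per side, had a median log2 ratio of 0.08, and NT5DC4 among them was called higher. IL33 lies apart from this cluster, on chromosome 9. Its 10 neighbours had a median of 0.40, from -0.81 to 1.73, and 7 lay above 0, against 51.2% of all genes. CD274 and KDM4C were the 2 called higher. Around IL18, on chromosome 11, the median of the 10 neighbours was 0.41, and 7 lay above 0. The 1 call among them was NNMT, which was lower. Over all genes, 6.00% were called higher and 8.95% lower.

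The receptors of these cytokines, a second cluster on chromosome 2, went in opposite directions. IL1RL1, which encodes the receptor of IL33 and was named here after its value was seen, had 1106 resistant and 399 parental counts and was 2.79-fold higher (2.49 to 3.14). IL18R1, which encodes the binding chain of the IL18 receptor, had 306 and 1540 counts and was 5.0-fold lower (4.42 to 5.67). IL1R1, the signalling receptor of IL1A and IL1B, had 144 and 721 counts and was 4.97-fold lower (4.15 to 5.99). IL1R2, a decoy receptor, had 2308 and 1816 counts, a log2 ratio of 0.36. IL18RAP, the second chain of the IL18 receptor, had 4 and 12 counts, and IL1RAP, the accessory chain shared by the receptors of IL1 and IL33, 47 and 72. Thus IL33 and its receptor gene were both higher, whereas IL18 was higher and its receptor gene lower. IL1RL2, which also lies inside this cluster, had 86 and 111 counts, a log2 ratio of -0.35. The neighbours of this cluster had a median log2 ratio of -0.11.

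**Figure D3:**
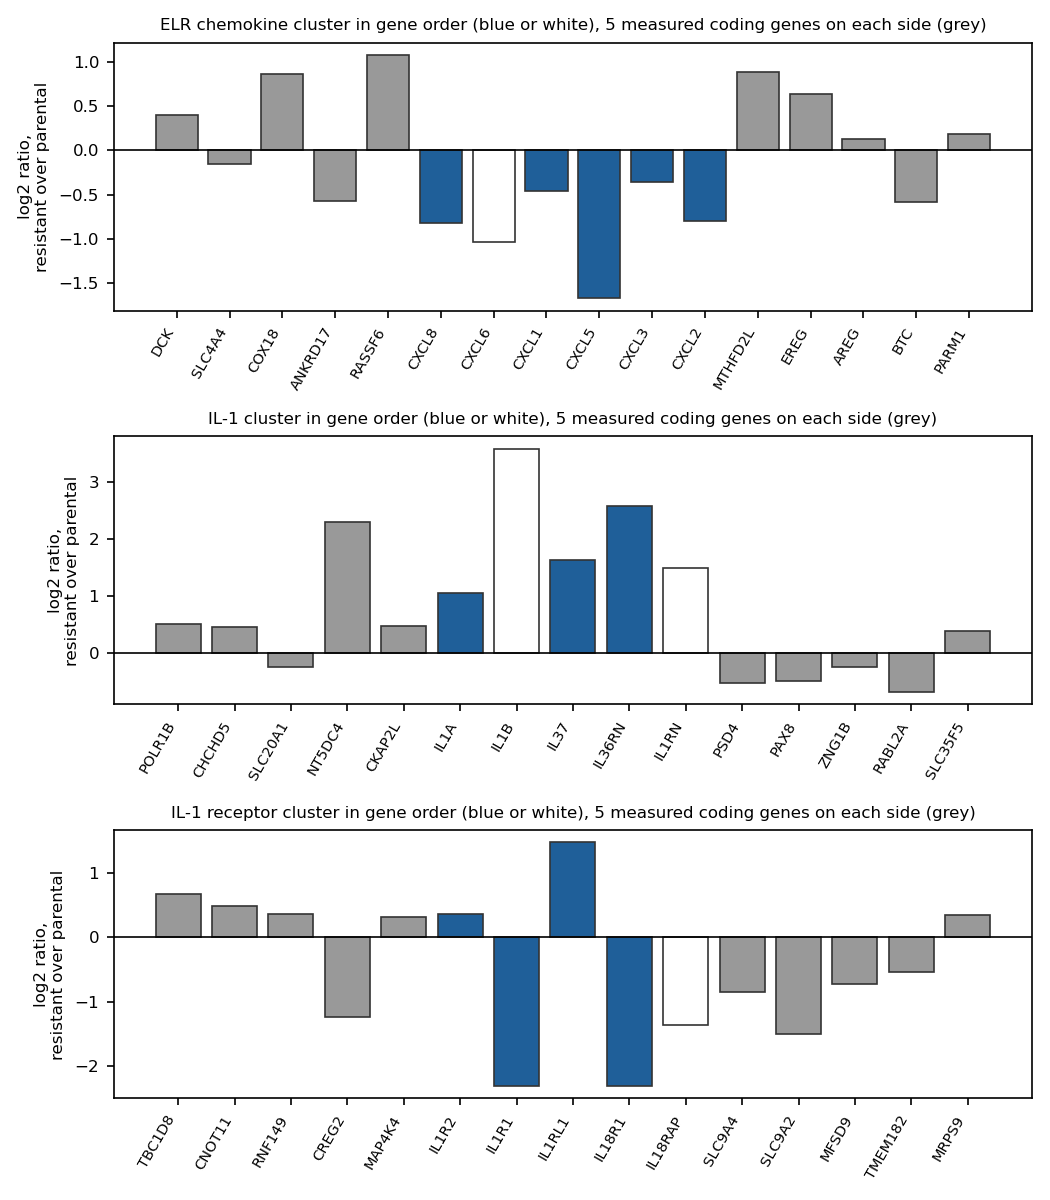
Log2 ratio of resistant over parental counts (y axis) in gene order (x axis) for the ELR chemokine cluster on chromosome 4, the IL1 cluster and the IL1 receptor cluster on chromosome 2. The listed genes of each cluster are blue, or white where neither library reached 50 counts, and the nearest measured coding genes, 5 per side, are grey. Other genes inside the clusters, such as IL1RL2, are not drawn. All 6 ELR chemokine genes lie below 0 and all 5 drawn genes of the IL1 cluster above 0, while the receptor genes range from -2.32 (IL18R1) to 1.48 (IL1RL1).

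IL32, LIF and IL6 are cytokines of other families. IL32 (ENSG00000008517) encodes a cytokine of epithelial and lymphoid cells without a mouse counterpart. It had 1423 resistant and 364 parental counts and was 3.94-fold higher (3.5 to 4.43), with FPKM values of 26.8 and 6.58. Its row corresponded to 623 of 1381 bases, and GENCODE lists 35 transcripts of the gene, so the ratio may not hold for its other transcripts. The 10 neighbours of IL32 on chromosome 16 had a median log2 ratio of 0.51, and 9 lay above 0, against 51.2% of all genes. HCFC1R1 and THOC6 were the 2 called higher, against 6.00% of all genes. LIF (ENSG00000128342), which encodes a cytokine that activates STAT3 and maintains stem cells, had 957 and 2108 counts in a full-length row and was 2.19-fold lower (2.03 to 2.36). With the trend of the ratio with gene length removed, its log2 ratio of -1.13 became -0.86. Of its 10 neighbours on chromosome 22, 8 also had log2 ratios below 0, against 48.8% of all genes, with a median of -0.46. IL6 had 16 and 7 counts, and the interval of its ratio, 0.896 to 6.61, included equality.

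Of the receptor chains for LIF and IL6, LIFR was called lower and IL6ST lay within 2-fold. LIFR (ENSG00000113594), which encodes the LIF-binding chain, had 819 resistant and 1933 parental counts and was 2.34-fold lower (2.16 to 2.55), as was its ligand gene. Its row corresponded to a transcript of 10089 bases, and its log2 ratio of -1.23 became -0.66 with the length trend removed. IL6ST, the shared signalling chain, had 16527 and 12596 counts, the highest count of any member in the resistant library, and a ratio of 1.32 (1.29 to 1.35). IL6R, the IL6-binding chain, had 16 and 49 counts, a ratio of 0.329 (0.174 to 0.588), below the count minimum. Downstream, 17 of 25 listed JAK-STAT and IL6 family signalling genes reached 50 counts, with a median log2 ratio of -0.41. Of these, 1 was higher (5.88%) and 3 lower (17.6%), against 6.00% and 8.95% of all genes. JAK2, a kinase bound to these receptors, had 2853 and 6358 counts and was 2.21-fold lower (2.12 to 2.31). PIM1, a kinase gene induced by STAT factors, had 112 and 236 counts, and OSMR, the oncostatin M receptor chain, 33 and 75 counts. CLCF1, which encodes another ligand of the family, was 2.13-fold higher with 142 and 67 counts. The rows of JAK2, PIM1 and OSMR were shorter than full length.

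Of the colony-stimulating factors, CSF2 was higher and CSF1 was not called. CSF2 (ENSG00000164400) encodes GM-CSF, which recruits and matures myeloid cells. It had 114 resistant and 16 parental counts and was 7.17-fold higher (4.23 to 13), with FPKM values of 1.71 and 0.230. Its row was full length, at 99.5% of the single transcript that GENCODE lists. The transcripts in the annotation that the authors used are not given. The 10 neighbours of CSF2 on chromosome 5 had a median log2 ratio of 0.36, from -0.61 to 0.66, and 7 lay above 0. None passed 2-fold, against 15.0% of all genes. CSF1, the macrophage growth factor, had 519 and 890 counts, a ratio of 0.587 (0.526 to 0.655), and its log2 ratio of -0.77 became -0.48 with the length trend removed. CSF3, the neutrophil growth factor, had no matched row. Receptors for these factors were scarce, and 0 of 4 reached 50 counts. CSF1R had 47 resistant and 7 parental counts, CSF2RA 6 and 1, CSF2RB 0 and 2, and CSF3R 2 and 2.

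The ELR chemokines attract neutrophils through the receptors CXCR1 and CXCR2 and carry the motif that gives them their name. All 6 had fewer counts in the resistant library, where 48.8% of all genes at 50 counts had log2 ratios below 0. CXCL5 (ENSG00000163735) had 9289 resistant and 29766 parental counts and was 3.18-fold lower (3.11 to 3.26). Its FPKM value was 132 in the parental and 43.0 in the resistant library, the highest level of any secreted factor in both. CXCL8 had 1222 and 2173 counts, a ratio of 0.566 (0.527 to 0.607), and CXCL2 164 and 288, a ratio of 0.573 (0.470 to 0.697). CXCL1 had 610 and 846 counts, a ratio of 0.726 (0.653 to 0.806), and CXCL3 267 and 346, a ratio of 0.777 (0.660 to 0.914). CXCL6, below the minimum, had 19 and 40 counts. Of the 5 at the count minimum, CXCL5 alone passed 2-fold, against 8.95% of all genes called lower. CXCL5, CXCL8, CXCL1 and CXCL2 were full-length rows, CXCL3 and CXCL6 were not. CXCL1, CXCL2 and CXCL3 are close paralogs. Of their distinct 50-base stretches of transcript, 4.81%, 12.5% and 6.01% occurred in another ELR chemokine, against 0 for CXCL5, CXCL6 and CXCL8, so reads could have been shared among the first 3.

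These genes lie in a cluster on chromosome 4 in the order CXCL8, CXCL6, CXCL1, CXCL5, CXCL3 and CXCL2. Other chemokine genes, PF4V1, PF4 and PPBP, lie between them, and PF4 had 28 resistant and 14 parental counts, below the minimum. Their 10 flanking coding genes had a median log2 ratio of 0.30, from -0.58 to 1.08. Of these, 1 was called higher (RASSF6) and 0 lower, against 6.00% and 8.95% of all genes. The 120 bases before each transcription start are shown because all 6 genes had fewer resistant counts and their promoters are known for NF-kB sites. The sequences are from RefSeq (GRCh38.p14), written 5′ to 3′ on the strand of the gene, and capitals mark a 9-base NF-kB site core.
CXCL8, chr4:73740449-73740568, plus strand: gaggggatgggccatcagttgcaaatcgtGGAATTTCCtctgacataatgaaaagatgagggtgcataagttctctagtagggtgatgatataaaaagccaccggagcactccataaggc
CXCL6, chr4:73836558-73836677, plus strand: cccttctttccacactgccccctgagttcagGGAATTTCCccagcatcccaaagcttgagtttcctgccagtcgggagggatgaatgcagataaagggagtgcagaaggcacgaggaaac
CXCL1, chr4:73869273-73869392, plus strand: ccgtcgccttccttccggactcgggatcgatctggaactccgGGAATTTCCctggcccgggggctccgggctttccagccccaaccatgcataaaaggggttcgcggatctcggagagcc
CXCL5, chr4:73998678-73998797, minus strand: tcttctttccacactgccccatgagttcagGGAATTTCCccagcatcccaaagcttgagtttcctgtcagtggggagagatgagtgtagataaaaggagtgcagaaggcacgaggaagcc
CXCL3, chr4:74038690-74038809, minus strand: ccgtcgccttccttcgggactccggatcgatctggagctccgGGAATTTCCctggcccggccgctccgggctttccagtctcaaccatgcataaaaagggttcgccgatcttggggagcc
CXCL2, chr4:74099196-74099315, minus strand: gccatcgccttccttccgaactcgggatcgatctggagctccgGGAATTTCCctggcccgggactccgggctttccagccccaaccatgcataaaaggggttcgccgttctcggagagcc

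Each of the 6 sequences held GGAATTTCC in the orientation of the gene. It began at -91 in CXCL8, -90 in CXCL5, -89 in CXCL6, -78 in CXCL1 and CXCL3 and -77 in CXCL2, counted from the base before the start as -1. Anchored on this core, CXCL5 and CXCL6 had the same base at 110 of 119 positions (92.4%) and CXCL1 and CXCL3 at 109 of 120 (90.8%), whereas CXCL5 and CXCL1 did at 34.3%. The nearest pair in sequence, CXCL5 and CXCL6, had log2 ratios of -1.67 and -1.03, the latter from few counts. The counting interval of the CXCL6 ratio, 0.262 to 0.845, held the ratios of all other ELR chemokines, so its rank was not resolved. A link between promoter sequence and ratio was not tested.

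The search covered the 300 bases from 250 before to 50 after each start, on both strands, for GGAATTTCC or its reverse complement GGAAATTCC. These letters were chosen after the sequences were seen, so the count of members is a description. They occurred in 162 of 35116 promoters (0.461%), or in 153 of 27305 genes (0.560%). Of the 32 members with a promoter entry, 13 held them, the 6 ELR chemokines and CXCL10, CXCL11, NFKB1, REL, NFKBIA, NFKBIZ and ICAM1. The broader NF-kB consensus of 10 letters, which overlaps the core, occurred in 18 of the 32 members and in 13.3% of all genes. CCL2, CCL5, CSF1, CSF3, CX3CL1, CXCL16, IL18, LIF, NFKBIE and RELB had no entry. The 7 other matches are shown with their flanks because they include the feedback genes of the pathway and the 2 interferon-induced chemokines.
CXCL10, chr4:76023650-76023688, minus strand: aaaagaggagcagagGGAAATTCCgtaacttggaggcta
CXCL11, chr4:76036122-76036160, minus strand: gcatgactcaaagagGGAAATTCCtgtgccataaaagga
NFKB1, chr4:102501296-102501334, plus strand: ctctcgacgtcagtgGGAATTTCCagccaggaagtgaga
REL, chr2:60881513-60881551, plus strand: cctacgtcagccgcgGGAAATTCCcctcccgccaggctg
NFKBIA, chr14:35404807-35404845, minus strand: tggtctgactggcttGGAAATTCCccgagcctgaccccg
NFKBIZ, chr3:101827753-101827791, plus strand: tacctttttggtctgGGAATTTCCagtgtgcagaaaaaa
ICAM1, chr19:10270919-10270957, plus strand: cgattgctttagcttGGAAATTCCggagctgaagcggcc

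Of the 12 members at 50 counts that held the core, 2 had log2 ratios above 0 (CXCL10 and NFKB1) and 10 below. Those below include CXCL1, CXCL2, CXCL3, CXCL5 and CXCL8, whose promoters were shown for their lower counts before the letters were chosen. The split by direction is therefore a description, and a link to the core was not tested. Of the 15 with an entry and no core, 7 had ratios above 0 and 8 below, the latter CCL20, CCL28, TNFAIP3, BIRC3, TNFAIP2, PTGS2, SOD2 and LIFR. Ratios below 0 thus occurred with and without these letters. The 3 members with the highest ratios at 50 counts, IL33, CSF2 and IL32, were among the 15, and their 120 bases before the first listed start are shown.
IL33, chr9:6215029-6215148, plus strand: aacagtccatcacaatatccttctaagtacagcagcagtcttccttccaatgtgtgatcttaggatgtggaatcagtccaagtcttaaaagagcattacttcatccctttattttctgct
IL32, chr16:3065283-3065402, plus strand: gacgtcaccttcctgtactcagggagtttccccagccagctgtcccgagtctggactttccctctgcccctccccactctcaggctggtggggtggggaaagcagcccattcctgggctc
CSF2, chr5:132073669-132073788, plus strand: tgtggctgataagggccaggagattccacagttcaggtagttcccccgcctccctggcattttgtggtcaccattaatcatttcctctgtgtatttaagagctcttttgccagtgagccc
IL32 held the broader consensus, while IL33 and CSF2 did not in this window. Sites that depart from the fixed letters of the consensus were not searched for.

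Of the remaining chemokines, CX3CL1 alone passed 2-fold at the count minimum. CXCL10 and CXCL11 encode interferon-induced chemokines that attract T cells. CXCL10 had 663 resistant and 457 parental counts, a ratio of 1.46 (1.29 to 1.65), and CXCL11 690 and 849, a ratio of 0.818 (0.739 to 0.906). The ratios of the pair thus lay on opposite sides of equality, each within 2-fold and each from a full-length row. CX3CL1 (ENSG00000006210), a membrane-anchored chemokine, had 30 and 98 counts and was 3.25-fold lower (2.14 to 5.06), from a row of 57.2% of the longest transcript. The other membrane-anchored chemokine, CXCL16, had 121 and 142 counts, and the interval of its ratio, 0.667 to 1.10, included equality. CCL28, a mucosal chemokine, had 1722 and 2494 counts, a ratio of 0.695 (0.653 to 0.739), and CCL20, a ligand of CCR6, 94 and 157, a ratio of 0.603 (0.462 to 0.783). CCL2, the monocyte chemokine, had 7 and 18 counts. Of 23 other listed chemokine genes, 7 had a matched row, and 0 of these reached 50 counts. Of 19 chemokine receptors, 12 had a matched row, and of these the scavenger receptor ACKR4 alone did, with 251 resistant and 276 parental counts. CXCR1 and CXCR2 had no matched row, and no level is given for genes without one.

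By deposited FPKM the make-up of the secreted factors differed between the lines. CXCL5 held 58.9% of the summed FPKM of the 23 matched secreted factors in parental cells and 26.8% in resistant cells. IL32 held 2.93% and 16.7%, IL18 4.40% and 15.1%, and IL33 0.131% and 5.58%. The sum was 224 in the parental and 161 in the resistant library, but without CXCL5 it was 92.2 and 118. CXCL5 therefore set the direction of the total. These sums mix rows of full and of shorter length and leave out CCL5 and CSF3.

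Among the NF-kB subunits, 4 of 5 had more counts in the resistant library, all within 2-fold. Log2 ratios above 0 occurred in 51.2% of all genes. RELA, the main activating subunit, had 133 resistant and 68 parental counts, a ratio of 1.97 (1.46 to 2.68). RELB, of the alternative pathway, had 194 and 113, a ratio of 1.73 (1.36 to 2.20). NFKB2, its precursor partner, had 609 and 405, a ratio of 1.51 (1.33 to 1.72), and NFKB1 1358 and 933, a ratio of 1.47 (1.35 to 1.59). REL differed from the others, with 961 and 1251 counts, a ratio of 0.773 (0.710 to 0.842). All 5 rows were short, from 15.0% (NFKB1) to 28.0% (REL) of the longest transcript, so they may not stand for the full mRNAs. RELA passed 2-fold under upper quartile scaling, with a log2 ratio of 1.04, and by FPKM, with 1.03.

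Feedback regulators, which NF-kB induces and which restrain it, had 1 of 5 members called lower, and 4 of 5 log2 ratios lay below 0. NFKBIZ (ENSG00000144802), a nuclear inhibitor-like protein that also activates some targets, had 4690 resistant and 9705 parental counts and was 2.06-fold lower (1.99 to 2.13). Its log2 ratio of -1.04 lay at the 2-fold line and became -0.97 under upper quartile scaling. Of its 10 neighbours on chromosome 3, 8 had log2 ratios below 0 and 4 were called lower, against 48.8% and 8.95% of all genes. Those called, CBLB, BBX, CD47 and IFT57, all lie on the same side of NFKBIZ, and no neighbour on the other side was called. NFKBIA, the main cytoplasmic inhibitor, had 628 and 1013 counts, a ratio of 0.624 (0.564 to 0.690). TNFAIP3, which encodes the deubiquitinase A20, had 317 and 468, a ratio of 0.682 (0.589 to 0.788), and BIRC3, a ubiquitin ligase, 6596 and 8873, a ratio of 0.748 (0.725 to 0.773). NFKBIE, another cytoplasmic inhibitor, went the other way with 608 and 340 counts in a full-length row, a ratio of 1.80 (1.57 to 2.06).

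All 4 response genes had fewer resistant counts, within 2-fold, where 48.8% of all genes had log2 ratios below 0. TNFAIP2 had 1643 resistant and 3167 parental counts, a ratio of 0.522 (0.492 to 0.554). SOD2, the mitochondrial superoxide dismutase, had 2953 and 5000, a ratio of 0.595 (0.568 to 0.622), and its annotated exons overlap those of WTAP on the other strand. Exons of LIF, LIFR, IL6ST, TNFAIP3, ICAM1, IL6, CXCL16 and RELA likewise overlap transcripts on the other strand, for CXCL16 those of MED11 (409 and 286 counts). REL shares 5702 of 13170 exonic bases with a transcript on its own strand. Whether counting used strand is not given in the labels. PTGS2, the inducible cyclooxygenase, had 805 and 1191, a ratio of 0.680 (0.621 to 0.745). ICAM1, an adhesion receptor for leukocytes, had 31 and 61 counts, a ratio of 0.512 (0.321 to 0.801). None of these 4 rows was full length. Over the 16 pathway genes, the 4 full-length rows (NFKBIE, TNFAIP3, IL6ST and LIFR) had a median log2 ratio of -0.07, with 2 above and 2 below 0, and the 12 shorter rows one of -0.49. For the secreted factors, the 12 full-length rows had a median of -0.38 with 4 higher and 2 lower. In all 5672 full-length genes, 8.16% were higher and 11.8% lower.

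**Figure D4:**
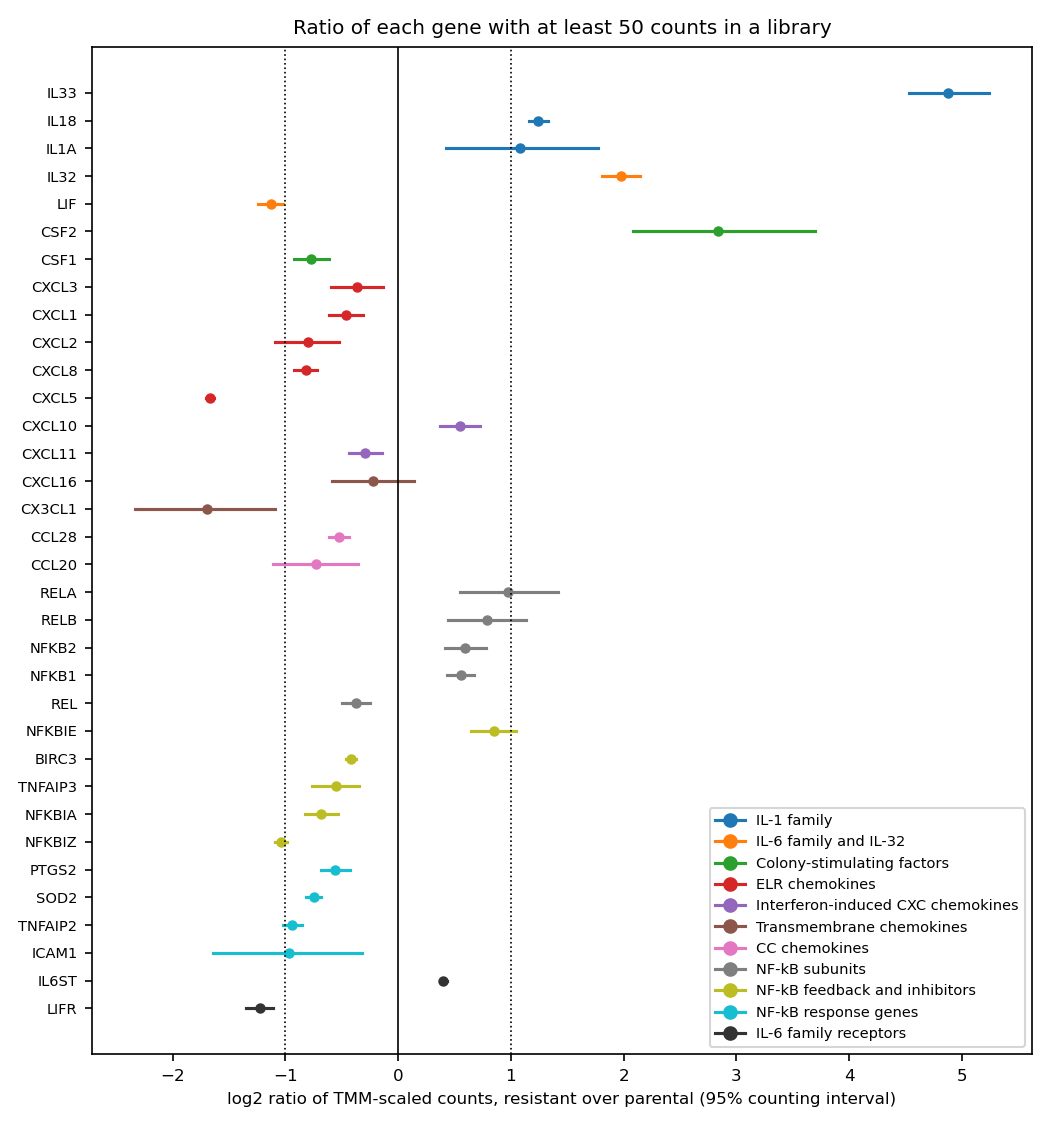
Log2 ratio of resistant over parental TMM-scaled counts (x axis) of the 34 genes that reached 50 counts, with exact 95% counting intervals as bars, coloured by role. Dotted lines mark a 2-fold difference. IL33, CSF2, IL32, IL18 and IL1A lie to the right of the upper line, CX3CL1, CXCL5, LIFR, LIF and NFKBIZ to the left of the lower line, and the NF-kB subunits between the lines.

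Other genes of the pathway were taken from fixed lists, whose calls stand beside shares of 6.00% higher and 8.95% lower in all genes. Of the kinase complex and its upstream regulators, 22 of 24 genes had a matched row, which IKBKG and IKBKE did not. Of these, 21 reached 50 counts and 0 passed 2-fold, with a median log2 ratio of 0.24. The farthest were CARD10, an adaptor, at 0.93 and MAP3K8, a kinase, at -0.88. Of 24 IL1 and Toll-like receptor signalling genes at 50 counts, 8 were called lower (33.3%) and 2 higher (8.33%), with a median of -0.67. Besides IL1R1 and IL18R1, TLR1 had 50 resistant and 152 parental counts and was 3.02-fold lower, whereas TLR6 had 314 and 90 and was 3.51-fold higher. Of 13 further inhibitors, 1 was lower and 1 higher (7.69% each), near the shares in all genes, with a median of 0.31. These were BCL3, an atypical inhibitor that acts in the nucleus, with 39 and 95 counts, and PDLIM2, which promotes degradation of RELA, with 60 and 27. The rows of CARD10, MAP3K8, TLR6 and PDLIM2 were shorter than full length.

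Genes that process cytokines or their mRNAs and prostaglandins were also measured. Of 12 processing and pyroptosis genes at 50 counts, 1 was higher (8.33%) and 2 lower (16.7%), with a median log2 ratio of -0.03. GSDME, a pore-forming gasdermin, had 73 resistant and 14 parental counts and was 5.25-fold higher (2.94 to 10.1). NLRP1, an inflammasome sensor, had 71 and 206 counts and was 2.88-fold lower, and CARD8 18 and 52. CASP1, whose product cleaves IL18, had 64 and 35 counts, within 2-fold. The rows of GSDME, CARD8 and CASP1 were shorter than full length. Of 11 genes that control cytokine mRNA decay, 1 was lower (9.09%), ZFP36L1, which promotes decay, with 803 and 2147 counts (2.66-fold, 2.45 to 2.88). Among 9 prostaglandin genes at 50 counts, 2 were higher (22.2%) and 3 lower (33.3%). The receptors of prostaglandin E2 differed in direction. PTGER4 had 176 and 50 counts and was 3.54-fold higher (2.57 to 4.95), and PTGER2 had 22 and 129 and was 5.82-fold lower (3.69 to 9.62). TBXAS1, thromboxane synthase, was 3.61-fold higher with 104 and 29 counts, and PTGIS, prostacyclin synthase, had 11 and 52.

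**Figure D5:**
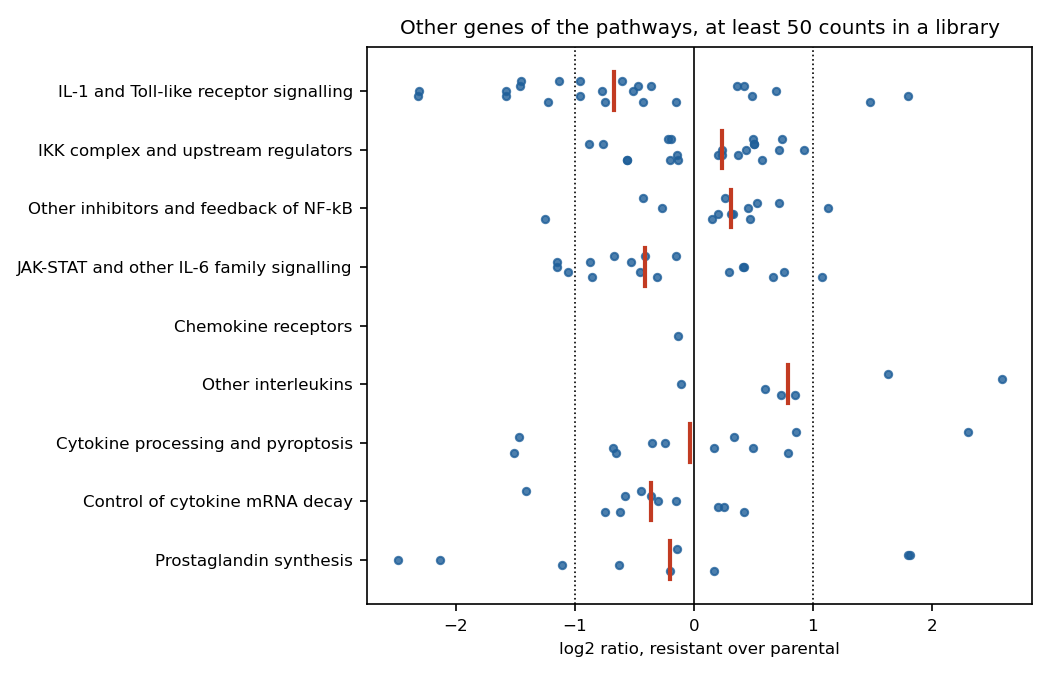
Log2 ratio of resistant over parental counts (x axis) of other pathway genes that reached 50 counts, 1 point per gene, in rows by list. Red bars are medians of lists with at least 3 such genes, and dotted lines mark a 2-fold difference. No gene of the kinase complex list lies outside the dotted lines, while IL1 and Toll-like receptor signalling genes have a median of -0.67.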

How the data were processed

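RNA-seq of 1 parental and 1 resistant library was deposited by the authors as whole-number counts and FPKM values per Ensembl gene, per the file headers. RSEM 1.2.3 and the hg19 build appear, without a role, per the submitters' processing notes. The sources used here give no annotation, no use of strand in counting and no choice of transcript. The libraries were strand-specific, per the labels' protocols.

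Counts were scaled with TMM (edgeR 4.0.16, R 4.3.3), and log2 ratios used a prior of 1 count. Symbols came from a gene name table (29536 identifiers) and, failing that, GENCODE release 29 (183), and 2126 stayed unnamed, holding 7.03% of resistant and 8.90% of parental counts. GENCODE served only for names, gene types and positions, overlaps, and the lengths and sequences of transcripts. The FPKM length was the count over the FPKM value, calibrated on 449 single-transcript genes with at least 500 counts in each library, and for 74.8% of these it came within 1% of the annotated length.

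The members and lists were chosen with earlier results of these data known. All 42 members are accounted for. Of each further list, up to 4 genes past 2-fold with the largest ratios are named, or the 2 largest where none passed. IL1RL1, IL1RL2, IL1R2, IL18RAP, IL1RAP, IL36G and CASP1 were chosen with their values in view. So were the receptors of colony-stimulating factors, CXCR1, CXCR2, PF4 and the flanking genes. The alternatives concerned scaling, prior, count minimum, fold size, FPKM and gene length, and full-length rows were added after seeing the data. DESeq2 1.42.0 gave the median-of-ratios factors. Calculations were tested on simulated data. Python 3.11.15, numpy 2.4.6, pandas 2.3.3, scipy 1.17.1, statsmodels 0.14.6 and matplotlib 3.10.9 were used.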

Additional observations from a re-analysis of the deposited data

How the results depend on the processing

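No paired analysis was possible because each line had 1 library. Of 306 member ratios under 9 alternatives, 0 changed sign, 17 moved outside their counting interval and 9, from 6 genes, crossed 2-fold (IL1A, LIF, LIFR, RELA, NFKBIE and NFKBIZ). The secreted factors called higher were 5, but 8 with a minimum of 10 counts or with none, 3 with 200 counts and 2 at 4-fold. Those called lower were 3, but 5 with a minimum of 10 counts or none, 7 at 1.5-fold and 0 at 4-fold. Their median of -0.41 against a mean of 0.17 differed in sign. Pathway genes called higher were 0, but 1 under upper quartile scaling, by deposited FPKM or with the length trend removed, and 4 at 1.5-fold. Those called lower were 2, but 1 under upper quartile scaling, by FPKM, with the counting interval past 2-fold or in full-length rows, 0 with the length trend removed or at 4-fold, and 6 at 1.5-fold. Their median was -0.48, the mean -0.21 and the median of full-length rows -0.07. Of the other pathway lists together, 9 genes were higher and 18 lower, compared with 2 and 10 at a minimum of 200, 21 and 38 without one, 2 and 4 at 4-fold and 21 and 33 at 1.5-fold. The median of the neighbours of the IL1 receptor cluster went from -0.11 to 0.01 with the length trend removed. Count minimum and fold size act by construction, and for the rest the cause was not tested. The median over all genes, 0.06, lay between 0.05 and 0.14 under these settings.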

Other observations

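The scarcity of ratios near equality followed the number of annotated transcripts of a gene. The share of genes with a log2 ratio within 0.1 of equality was 12.4% with 1 transcript (2310 genes), 10.3% with 2 (1067 genes), 4.47% with 3 to 5 (3129 genes), 2.85% with over 5 and up to 10 (4036 genes) and 1.40% with over 10 (4009 genes). The share called higher was 6.75%, 6.75%, 7.48%, 5.35% and 4.86% over these classes in the same order. The share called lower was 8.14%, 9.37%, 8.85%, 8.65% and 9.48%, so neither share moved steadily with the number of transcripts. Of the members at 50 counts, CXCL5, CXCL10, IL1A and CSF2 have 1 annotated transcript, whereas RELA has 27 and IL32 has 35.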
